A study of Mus musculus with 9 samples.

Results

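Transcripts of 6 K2P (tandem pore-domain potassium) leak channel genes, Kcnk1, Kcnk2, Kcnk3, Kcnk4, Kcnk10 and Kcnk18, were measured in mouse lumbar dorsal root ganglia after local injection of a platinum drug. The genes were taken by symbol from the 38926 genes of the count files. They are 6 of the 14 K2P genes counted there, and all 6 passed the filter on low counts that left 17348 genes for testing. Whole ganglia L3 to L5 were taken ipsilateral to the injected paws from male wild-type C57BL/6 mice aged 8 to 10 weeks. The 3 cisplatin libraries and the 3 oxaliplatin libraries came from mice that received a cumulative intraplantar dose of 40 µg of the drug, and the 3 vehicle libraries came from vehicle-treated mice. Ganglia of 4 animals were pooled for each library, so single animals were not measured and p-values describe the spread between pools. The design asks how each drug alters ganglion transcripts relative to vehicle, and whether the drugs differ from each other.

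K2P channels carry the background potassium current that holds a resting neuron near the potassium equilibrium potential, so their activity sets how readily a sensory neuron fires. Each subunit holds a pair of pore loops and works as a dimer with a single pore. TREK-1 (Kcnk2), TREK-2 (Kcnk10) and TRAAK (Kcnk4) respond to membrane stretch, temperature and lipids, TASK-1 (Kcnk3) is closed by extracellular acid, TRESK (Kcnk18) is activated through the calcium-dependent phosphatase calcineurin, and TWIK-1 (Kcnk1) is a weakly conducting member of the family. TREK-1, TREK-2, TRAAK and TRESK are known from mouse sensory neurons, where their loss alters responses to temperature, touch or chemical irritants.

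The family signature is the potassium selectivity filter in each pore loop, and its coding sequence is shown because it shows what the 6 genes share and how far their letters differ for read assignment. The lines give 51 bases of coding strand around the first filter from GENCODE M21 transcripts (build GRCm38), with the 15 filter bases in capitals. They were found by translating each coding sequence and searching the reading frame for the filter's 5-residue pattern (threonine, a small or aliphatic residue, glycine, then tyrosine, phenylalanine or leucine, and glycine), and all 14 K2P genes held exactly 2 matches. In each of the 6 genes a splice junction lies within the first filter.
Kcnk1: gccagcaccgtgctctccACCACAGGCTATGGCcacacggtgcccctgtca
Kcnk3: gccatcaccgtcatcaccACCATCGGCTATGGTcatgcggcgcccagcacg
Kcnk2: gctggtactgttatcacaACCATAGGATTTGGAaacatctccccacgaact
Kcnk10: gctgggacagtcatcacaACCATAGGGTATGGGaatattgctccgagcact
Kcnk4: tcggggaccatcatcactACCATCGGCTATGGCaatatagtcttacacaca
Kcnk18: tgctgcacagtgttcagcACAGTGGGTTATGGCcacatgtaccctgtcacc
Between pairs of these genes, 26 to 38 of the 51 bases matched, with the most for Kcnk2 and Kcnk10. Over the whole aligned coding sequence the identity was 70.7% for Kcnk2 and Kcnk10 and 59 to 66.9% for the other pairs. The longest run shared by any pair was 20 bases, and no window of 75 bases, the read length, occurred in transcripts of more than 1 K2P gene.

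Kcnk1 lies on chr8:125995170-126030685 (plus strand), Kcnk3 on chr5:30588170-30625271 (plus), Kcnk2 on chr1:189207930-189402273 (minus), Kcnk10 on chr12:98429437-98578310 (minus), Kcnk4 on chr19:6923966-6934515 (minus) and Kcnk18 on chr19:59219214-59237374 (plus), all in GRCm38. Their exons can share reads with other annotated genes. Kcnk4 shared 587 exon bases with Catsperz on the same strand, and 11.9% of its 75-base windows occurred in transcripts of other genes. Transcripts on the opposite strand shared 7.72% of windows with Kcnk2, 4.70% with Kcnk1 and 4% with Kcnk3, while Kcnk10 and Kcnk18 shared 0%. The Kcnk4 counts are therefore uncertain, and so are those of Kcnk1, Kcnk2 and Kcnk3 to the extent of these shares, since the strand setting of the counting is not known here.

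Depth was 31971613 to 38168902 gene reads in cisplatin libraries, 35520144 to 38808509 in oxaliplatin libraries and 22819185 to 32022672 in vehicle libraries. The 6 genes had between 98 and 3174 reads in each library. Vehicle library 2 stood apart: 47.7% of its uniquely aligned reads fell outside genes, against 26.2 and 26.8% in the other vehicle libraries, 18.6 to 19.1% in cisplatin libraries and 16.6 to 17.8% in oxaliplatin libraries. The share was lower in all 3 libraries of either drug than in all 3 vehicle libraries (two-sided exact permutation test, p = 0.1 for each drug, the smallest 3 against 3 can give, and 0.2 when adjusted over 6 such tests). Reads aligned to multiple places made up 51.0% of all recorded reads in vehicle library 2 and 25.9 to 33.8% in the other 8 libraries. The part of these shares in the results was not tested.

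Per length, Kcnk1 was the most abundant K2P transcript in all 9 libraries. Levels in this paragraph are CPM (reads relative to library totals that were scaled by the trimmed mean of M-values, TMM) per kilobase of annotated exon, as mean ± SD over 3 libraries. Kcnk1 averaged 32.4 ± 0.249 in cisplatin libraries, 32.9 ± 0.839 in oxaliplatin libraries and 35.2 ± 1.08 in vehicle libraries, which was 56.4, 55.4 and 57.7% of the summed level of the 14 genes. Kcnk18 followed among the 6 genes at 2.78 ± 0.218, 2.74 ± 0.230 and 3.09 ± 0.625 in cisplatin, oxaliplatin and vehicle libraries, and Kcnk3 at 2.47 ± 0.197, 2.55 ± 0.200 and 2.94 ± 0.203. The libraries of these neighbours overlapped in every group. Kcnk2 averaged 2.09 ± 0.134, 1.995 ± 0.0978 and 1.92 ± 0.129, below every Kcnk3 library of the same group. Kcnk4, at 1.23 ± 0.0683, 1.27 ± 0.0839 and 1.34 ± 0.0456, and Kcnk10, at 1.12 ± 0.0793, 1.17 ± 0.0610 and 1.11 ± 0.0910, were lowest, and their libraries overlapped in the cisplatin group. Between Kcnk1 and Kcnk18 in this order lay Kcnk12, Kcnk13 and Kcnk5, which are not among the 6 genes. The length used is that of all annotated exons together, so a gene with long alternative ends, such as Kcnk10 with 8774 bases of exon, scores lower than a short form of its transcript would.

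**Figure D1:**
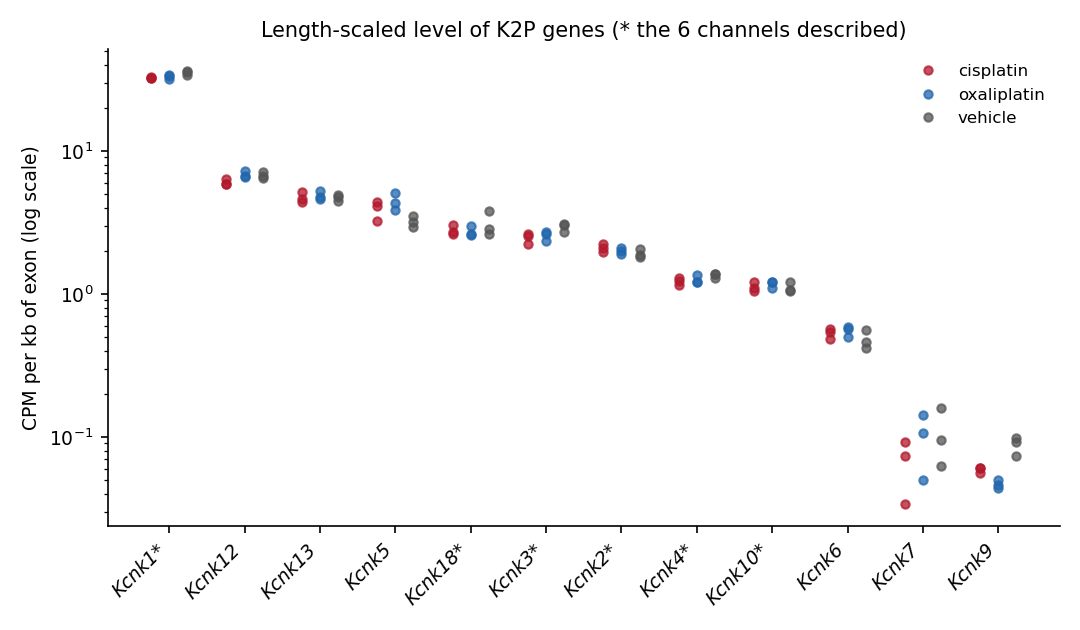
Level of each K2P gene in CPM per kilobase of exon (log axis), with 1 point per library, for cisplatin, oxaliplatin and vehicle, ordered by the vehicle mean. Asterisks mark the 6 genes described; Kcnk1 stands at 32.0 to 36.2 in all libraries, and Kcnk15 and Kcnk16, with libraries at 0, are not drawn.

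Under TMM scaling, 2 of the 6 transcripts changed with cisplatin and 0 with oxaliplatin against vehicle, and all 6 stayed within 0.27 of 0 on the log2 scale. With cisplatin, Kcnk1 and Kcnk3 fell under TMM and lay above vehicle under library totals alone or scaling to 20 pan-neuronal genes. These are 2 of 6 genes in a comparison where edgeR's quasi-likelihood test with Benjamini-Hochberg adjustment called 38.7% of all tested genes at an adjusted p under 0.05 (22.9% lower), so the share of the 6 was near that of all genes. DESeq2 called 0 of the 6 and limma-voom 1, where they called 6409 and 6663 of all 17348 genes. Under pan-neuronal scaling 3 of the 6 were called for each drug, all higher. That scaling called 9171 of all genes higher for cisplatin and 8974 for oxaliplatin, so the share of the 6 was again near that of all genes. With oxaliplatin, 0 of 6 passed where 41.6% of all genes did, and 2 of the 6 had an unadjusted p under 0.05 (8637 of all genes). DESeq2 and limma-voom called 0 of the 6 for oxaliplatin. DESeq2 called 3023 of all genes higher and 3905 lower, and limma-voom 3017 and 4192. Between the drugs, 0 of 6 passed where 0.0115% of all genes did, 0 had an unadjusted p under 0.05, and DESeq2 and limma-voom called 0.

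Kcnk1, the weakly conducting TWIK-1, had 72.0, 72.1 and 73.0 CPM in cisplatin libraries, 74.2, 75.2 and 71.5 CPM in oxaliplatin libraries and 79.2, 76.1 and 80.8 CPM in vehicle libraries. Every library of either drug lay below every vehicle library, while the drug groups overlapped. The log2 fold change was -0.12 for cisplatin (SE 0.04, 95% interval -0.22 to -0.03, adjusted p = 0.0443) and -0.10 for oxaliplatin (SE 0.04, interval -0.19 to -0.00, adjusted p = 0.0941). Between cisplatin and oxaliplatin it was -0.02 (interval -0.12 to 0.07). The cisplatin call held in 1 of 9 fits that left out a library, the one without vehicle library 2 (-0.13, adjusted p = 0.0457). In the other 8 fits the change was -0.12 to -0.10 with adjusted p of 0.0581 to 0.191.

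Kcnk3, the acid-sensitive TASK-1, had 10.5, 8.94 and 10.0 CPM in cisplatin libraries, 10.4, 9.26 and 10.8 CPM in oxaliplatin libraries and 12.2, 10.8 and 12.1 CPM in vehicle libraries. The cisplatin libraries lay below all vehicle libraries, and the oxaliplatin libraries overlapped with the lowest vehicle library. Under TMM its change was the furthest from 0 of the 6 genes for each drug, which library totals and removal of the GC and length trend did not keep. It was -0.26 for cisplatin (SE 0.09, interval -0.46 to -0.07, adjusted p = 0.0368) and -0.21 for oxaliplatin (SE 0.09, interval -0.41 to -0.02, adjusted p = 0.0772). Between the drugs it was -0.05 (interval -0.24 to 0.14). The cisplatin call was lost without cisplatin library 2 or 3, oxaliplatin library 1, or vehicle library 1 or 3. The values without them were -0.26 to -0.20 (adjusted p = 0.0589 to 0.156).

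Kcnk2, the stretch- and heat-activated TREK-1, had 11.03, 9.71 and 10.3 CPM in cisplatin libraries, 10.3, 9.35 and 9.92 CPM in oxaliplatin libraries and 10.2, 9.27 and 8.97 CPM in vehicle libraries. All 3 groups overlapped. Its log2 fold change was 0.12 for cisplatin (interval -0.06 to 0.31, adjusted p = 0.261), 0.06 for oxaliplatin (interval -0.13 to 0.24, adjusted p = 0.613) and 0.07 for cisplatin over oxaliplatin (interval -0.11 to 0.24).

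Kcnk10, which encodes TREK-2, had 9.69, 9.20 and 10.6 CPM in cisplatin libraries, 10.5, 10.6 and 9.66 CPM in oxaliplatin libraries and 9.22, 9.27 and 10.6 CPM in vehicle libraries, again with overlap of all groups. The change was 0.01 for cisplatin (interval -0.18 to 0.20, adjusted p = 0.941), 0.08 for oxaliplatin (interval -0.11 to 0.27, adjusted p = 0.508) and -0.07 for cisplatin over oxaliplatin (interval -0.25 to 0.12).

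Kcnk4, the mechanosensitive TRAAK, had 5.76, 5.52 and 5.16 CPM in cisplatin libraries, 6.09, 5.45 and 5.44 CPM in oxaliplatin libraries and 5.77, 6.14 and 6.11 CPM in vehicle libraries. The cisplatin libraries lay just below the vehicle libraries, nearly touching the lowest, and the oxaliplatin libraries overlapped with them. The change did not pass the test for cisplatin (-0.13, interval -0.33 to 0.07, adjusted p = 0.284) or oxaliplatin (-0.08, interval -0.28 to 0.12, adjusted p = 0.491), and was -0.05 between the drugs (interval -0.24 to 0.14).

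Kcnk18, the calcineurin-regulated TRESK, had 9.06, 9.37 and 10.5 CPM in cisplatin libraries, 10.4, 8.97 and 9.09 CPM in oxaliplatin libraries and 9.82, 9.14 and 13.2 CPM in vehicle libraries. All 3 groups overlapped, and vehicle library 3 was the highest of the 9. The change was -0.17 for cisplatin (interval -0.45 to 0.10, adjusted p = 0.305), -0.19 for oxaliplatin (interval -0.47 to 0.08, adjusted p = 0.237) and 0.02 between the drugs (interval -0.24 to 0.29). Without vehicle library 3 it was 0.02 for cisplatin (adjusted p = 0.916) and -0.00 for oxaliplatin (adjusted p = 0.980).

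**Figure D2:**
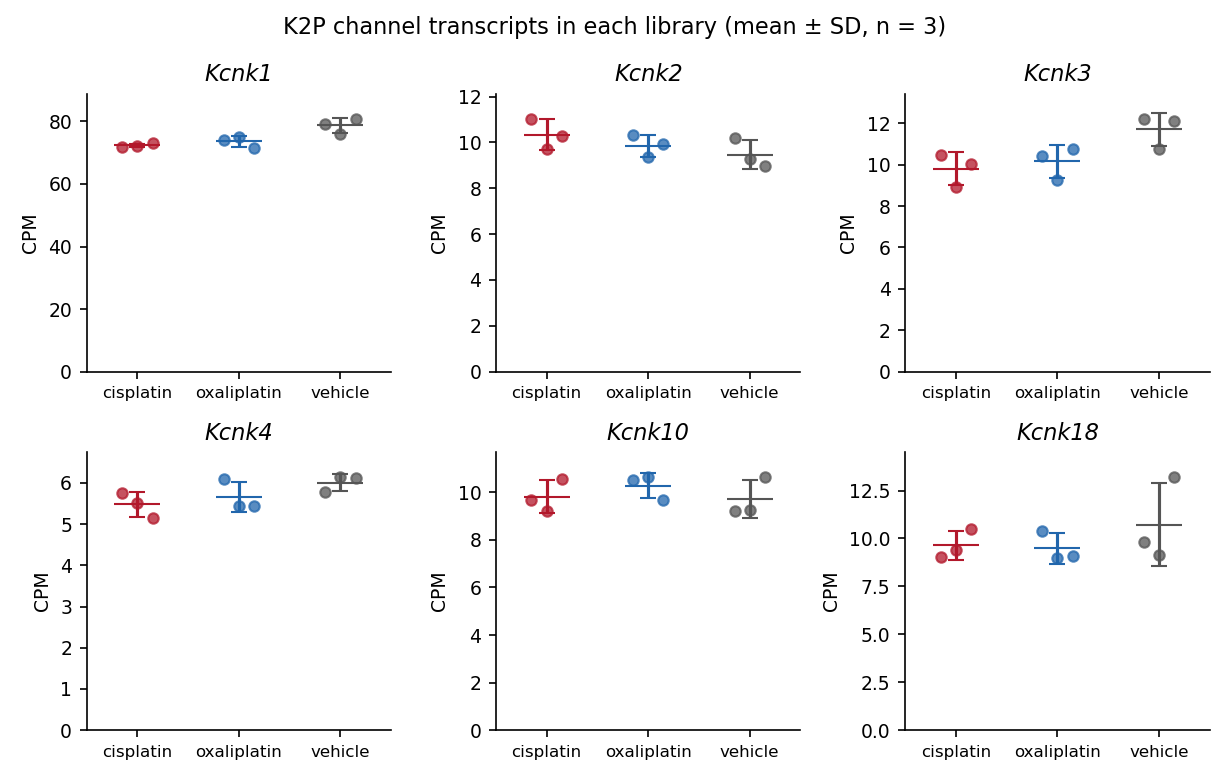
CPM of each of the 6 genes in each library (points), with mean ± SD (bars, n = 3), for cisplatin, oxaliplatin and vehicle. The Kcnk1 points of both drugs lie below all vehicle points, the Kcnk3 and Kcnk4 points of cisplatin lie below all vehicle points, and the other groups overlap.

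Groups that did not overlap were 3 of 6 genes for cisplatin against vehicle (Kcnk1, Kcnk3 and Kcnk4; 48% of all tested genes), 1 of 6 for oxaliplatin against vehicle (Kcnk1; 50.5%) and 0 of 6 between the drugs (14.2%). The absolute log2 fold change of the 6 genes had a median of 0.13 for cisplatin against vehicle and 0.09 for oxaliplatin against vehicle, beside 0.22 and 0.23 over all tested genes. By size, Kcnk10 ranked above 2.37% and Kcnk3 above 58.3% of all genes for cisplatin, and for oxaliplatin Kcnk2 ranked above 13.1% and Kcnk3 above 47.6%. The 95% intervals of all 6 genes against vehicle reached no further than a 1.38-fold decrease (Kcnk3, cisplatin, and Kcnk18, oxaliplatin) and a 1.24-fold increase (Kcnk2, cisplatin). Between the drugs they reached a 1.19-fold decrease (Kcnk10) and a 1.22-fold increase (Kcnk18), so larger differences lay outside the intervals under TMM scaling.

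**Figure D3:**
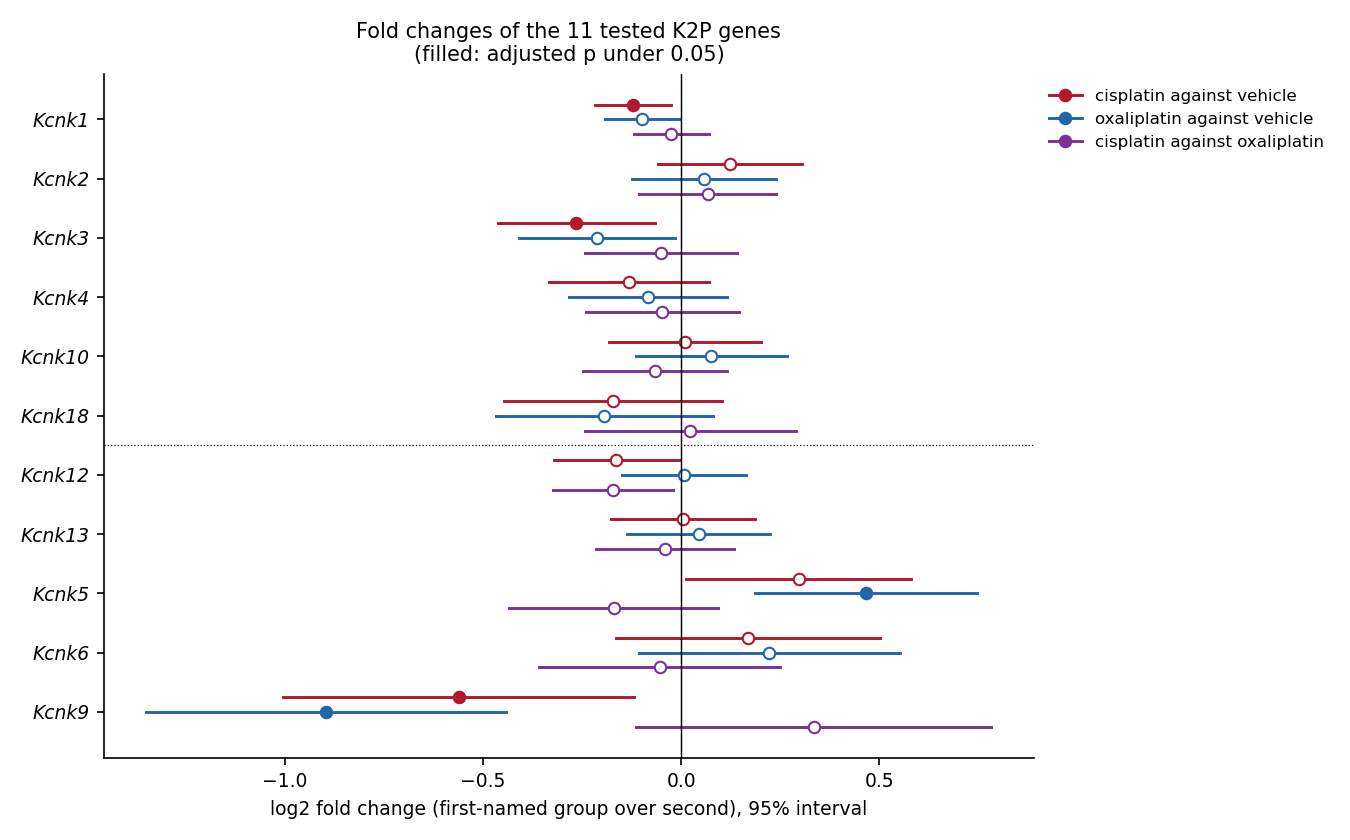
Log2 fold changes (points) with 95% intervals (lines) of the 11 tested K2P genes for each drug against vehicle and for cisplatin over oxaliplatin, with the 6 genes described above the dotted line. Filled points passed an adjusted p under 0.05 under TMM scaling: Kcnk1 and Kcnk3 for cisplatin (both above 0 under library totals), Kcnk5 for oxaliplatin and Kcnk9 for both drugs.

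The scaling set where 0 lay for these small changes. Library totals moved the median log2 fold change of all tested genes to 0.29 for cisplatin and 0.30 for oxaliplatin, scaling to the pan-neuronal genes moved it to 0.32 for each drug, and under TMM it was 0.00 for each. The share of called genes that were higher than vehicle moved with it, to 86.7% (library totals) and 87.3% (pan-neuronal) for cisplatin, beside 40.9% under TMM, and to 86.5 and 85.9% for oxaliplatin, beside 42.1%. Kcnk1 then stood at 0.17 (library totals, adjusted p = 0.371) and 0.20 (pan-neuronal, adjusted p = 0.0162) for cisplatin, and Kcnk3 at 0.02 and 0.06. Kcnk2 was higher than vehicle with cisplatin under library totals (0.41, adjusted p = 0.0255) and pan-neuronal scaling (0.45, adjusted p = 0.00311). Kcnk10 was higher with oxaliplatin under the same scalings (0.37, adjusted p = 0.0394, and 0.40, adjusted p = 0.00375). These scalings shift all genes of a library alike, so the distance of a gene from the median gene, -0.13 for Kcnk1 and -0.27 for Kcnk3 with cisplatin under TMM, is nearly the same in each by construction. Correcting for GC content and exon length moves genes unequally. For cisplatin it put Kcnk1 at -0.30 (adjusted p = 0.000872) and Kcnk3 at -0.28 (adjusted p = 0.033). For oxaliplatin it put Kcnk1 at -0.27 (adjusted p = 0.00141) and Kcnk10 at 0.28 (adjusted p = 0.024). Kcnk18 was at -0.30 for oxaliplatin and did not pass (adjusted p = 0.0855). With library totals and vehicle library 2 left out, Kcnk1 was at 0.01, Kcnk3 at -0.16 and Kcnk2 at 0.27 for cisplatin, and the median gene was at 0.16. In the same setting Kcnk10 was at 0.22 for oxaliplatin and did not pass (adjusted p = 0.0780), with the median gene at 0.17.

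**Figure D4:**
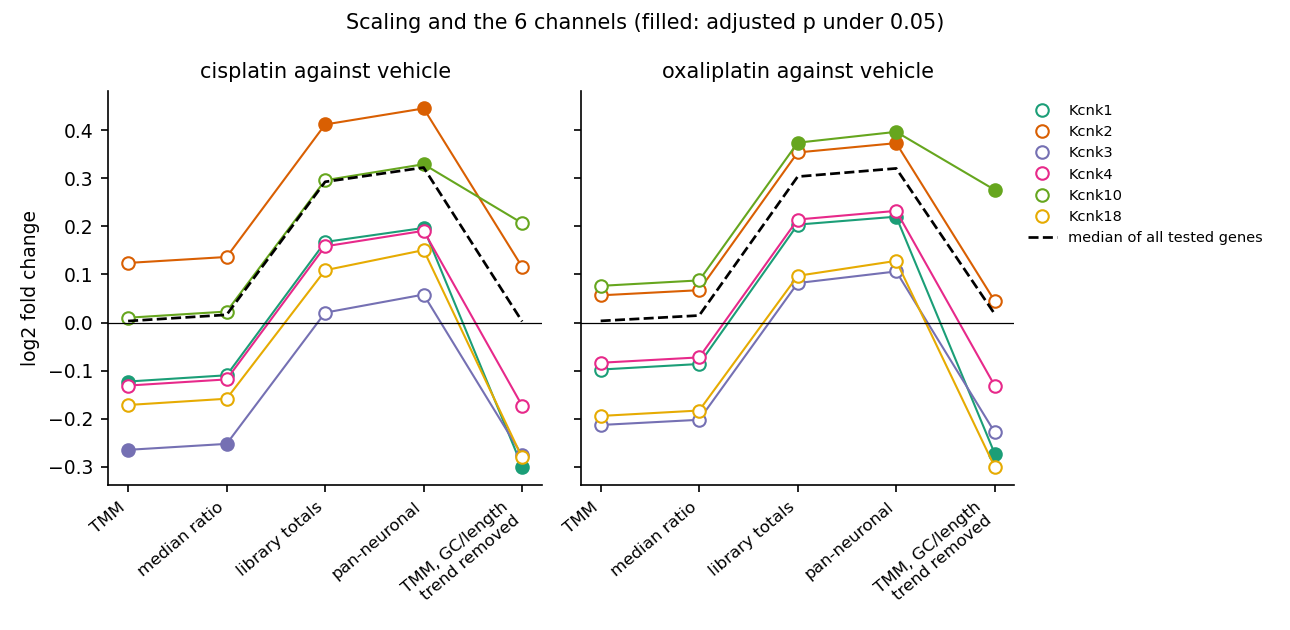
Log2 fold change of each of the 6 genes under 5 scalings (filled points, adjusted p under 0.05) for cisplatin against vehicle (left) and oxaliplatin against vehicle (right), with the median of all tested genes as a dashed line. The genes move with the median, which lies at 0.00 under TMM and at 0.29 to 0.32 under library totals and pan-neuronal scaling.

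Of the 8 other K2P genes, 5 could be tested. Under TMM 1 passed with cisplatin (Kcnk9) and 2 with oxaliplatin (Kcnk9 and Kcnk5), where 38.7 and 41.6% of all genes did. Kcnk9, which encodes the acid-sensitive TASK-3, was close to the limit of counting with 18 to 37 reads per library. It had 0.688, 0.747 and 0.744 CPM in cisplatin libraries, 0.614, 0.545 and 0.570 CPM in oxaliplatin libraries and 0.899, 1.13 and 1.20 CPM in vehicle libraries, so that all 6 drug libraries lay below all 3 vehicle libraries. It fell by 0.56 on the log2 scale with cisplatin (SE 0.20, adjusted p = 0.0461) and by 0.90 with oxaliplatin (SE 0.21, adjusted p = 0.00492). The cisplatin call held in 1 of 9 fits that left out a library, the one without vehicle library 1 (-0.66), and the others gave -0.58 to -0.45, with -0.52 without vehicle library 2 (adjusted p = 0.0923). It was also lost with DESeq2 (adjusted p = 0.165), in a fit of 2 groups only (adjusted p = 0.0710) and with the GC and length trend removed (-0.25, adjusted p = 0.420). Its direction was the same under library totals (-0.28 for cisplatin, adjusted p = 0.465, and -0.60 for oxaliplatin, adjusted p = 0.102) and under pan-neuronal scaling (-0.24 and -0.58).

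Kcnk5, the alkaline-activated TASK-2, had 14.0, 14.9 and 11.03 CPM in cisplatin libraries, 13.1, 14.8 and 17.1 CPM in oxaliplatin libraries and 11.8, 10.8 and 9.91 CPM in vehicle libraries. It rose with oxaliplatin, where all libraries lay above vehicle, by 0.47 on the log2 scale (SE 0.13, adjusted p = 0.0125), and this was 0.36 without oxaliplatin library 3 (adjusted p = 0.0565) and 0.39 without vehicle library 3 (adjusted p = 0.0600). With cisplatin the change was 0.30 (SE 0.13, adjusted p = 0.0900), and between the drugs it was -0.17 (interval -0.43 to 0.09). Under library totals and pan-neuronal scaling it passed for both drugs, at 0.59 (adjusted p = 0.00120) and 0.62 (adjusted p = 0.00434) for cisplatin and at 0.77 and 0.79 for oxaliplatin. The cisplatin value was 0.19 with the GC and length trend removed and 0.44 without cisplatin library 3, where it passed. Kcnk12 and Kcnk13, of the THIK group, and Kcnk6 (TWIK-2) did not pass for either drug, with values of -0.16, 0.00 and 0.17 for cisplatin and 0.01, 0.04 and 0.22 for oxaliplatin. Kcnk7, Kcnk15 and Kcnk16 had at most 9, 1 and 3 reads in any library and were not tested.

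Under TMM scaling, genes whose products act on these channels were called lower more often than higher. Under library totals and pan-neuronal scaling they were called higher more often than lower, and all tested genes turned in the same way. The list holds 26 genes, all tested: subunits of calcineurin and 14-3-3 proteins, kinases, G proteins, and trafficking partners. With cisplatin 12 fell and 1 rose (15.8% of all genes were higher and 22.9% lower), with a list median of -0.17, and with oxaliplatin 11 fell and 1 rose (17.5 and 24.1% of all genes), with a list median of -0.14, beside 0.00 for all genes. These comparisons share the vehicle libraries. Under library totals 3 were called higher and 2 lower with cisplatin, where 5989 of 17348 genes were higher and 918 lower. With oxaliplatin 5 were higher and 3 lower (6408 and 998 of all genes). Under pan-neuronal scaling 12 were higher and 4 lower with cisplatin (9171 and 1340 of all genes). With oxaliplatin 10 were higher and 7 lower (8974 and 1475). List medians were 0.11 and 0.17 under library totals and 0.14 and 0.17 under pan-neuronal scaling. The median of all genes was 0.29 to 0.32. Without vehicle library 2 and under TMM, 1 was higher and 13 lower with cisplatin (3401 and 3908 of 17711 genes). With oxaliplatin 2 were higher and 12 lower (3619 and 4078).

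Ppp3cb, a catalytic subunit of calcineurin, had 135, 134 and 147 CPM in cisplatin libraries, 136, 122 and 127 CPM in oxaliplatin libraries and 234, 218 and 193 CPM in vehicle libraries. It fell by 0.63 with cisplatin (adjusted p = 6.54e-05) and by 0.75 with oxaliplatin (adjusted p = 2.02e-05), and was at -0.34 (adjusted p = 0.0643) and -0.44 under library totals and at -0.34 and -0.39 with the GC and length trend removed. Ppp3r1, the regulatory subunit of the same enzyme, fell by 0.39 with cisplatin and by 0.56 with oxaliplatin, and stood at -0.10 and -0.25 under library totals, where neither passed. Ppp3ca, another catalytic subunit, averaged 674, 668 and 773 CPM in cisplatin, oxaliplatin and vehicle libraries. The catalytic subunit Ppp3cc averaged 44.0, 45.2 and 42.2 CPM in the same order, and neither of these genes passed under TMM for either drug. Ywhaz, which encodes 14-3-3 zeta, fell by 0.42 and 0.59, with -0.12 and -0.28 under library totals, where neither passed. Prkce, the kinase PKC epsilon, which sensitizes nociceptors, had 188 ± 13.1 CPM in cisplatin libraries, 197 ± 18.6 in oxaliplatin libraries and 313 ± 22.3 in vehicle libraries (SD, n = 3 each), and fell by 0.73 and 0.67. Map2, a dendritic microtubule protein that binds TREK-1, fell by 0.90 and 0.76. Prkce and Map2 were still lower and past the test for both drugs under library totals (-0.45 and -0.38 for Prkce, -0.63 and -0.47 for Map2). With the GC and length trend removed, Map2 was at -0.46 and -0.36, past the test. S100a10, the annexin A2 partner p11 that carries TASK-1 and other channels in trafficking, rose by 0.27 with each drug and was higher under library totals too (0.57 and 0.58).

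Among 19 tested genes of the inward rectifiers, the sulfonylurea receptor subunits and the sodium leak complex, 7 fell and 2 rose with cisplatin (22.9% of all genes lower and 15.8% higher; list median -0.09), and 6 fell and 3 rose with oxaliplatin (24.1 and 17.5%; list median -0.14). Under library totals 4 were called higher and 4 lower with each drug. Of all 17348 genes, 5989 were higher and 918 lower with cisplatin there, and 6408 and 998 with oxaliplatin. Under pan-neuronal scaling 5 were higher and 4 lower with cisplatin (9171 and 1340 of all genes). With oxaliplatin 6 were higher and 4 lower (8974 and 1475). Without vehicle library 2 and under TMM, 2 were higher and 8 lower with cisplatin (3401 and 3908 of 17711 genes). With oxaliplatin 2 were higher and 7 lower (3619 and 4078). The sodium leak channel NALCN supplies an inward background current that opposes the K2P current. Nalcn had 83.1, 85.0 and 89.2 CPM in cisplatin libraries, 102, 83.2 and 91.2 CPM in oxaliplatin libraries and 124, 109 and 107 CPM in vehicle libraries, a fall of 0.41 for cisplatin (adjusted p = 0.00154) and 0.30 for oxaliplatin (adjusted p = 0.00808). It was -0.12 (adjusted p = 0.543) and -0.00 (adjusted p = 0.991) under library totals, 0.01 for oxaliplatin under pan-neuronal scaling, 0.02 and 0.11 with the trend of GC content and length removed, and -0.21 for oxaliplatin without vehicle library 1 (adjusted p = 0.0651). With library totals and vehicle library 2 left out, Nalcn was at -0.27 for cisplatin (adjusted p = 0.00837) and -0.16 for oxaliplatin (adjusted p = 0.0852).

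Unc79 and Unc80, auxiliary subunits of NALCN, fell with both drugs. Unc79 had 13.6, 12.7 and 13.2 CPM in cisplatin libraries, 15.1, 11.5 and 13.9 CPM in oxaliplatin libraries and 23.3, 20.5 and 28.7 CPM in vehicle libraries, a fall of 0.89 and 0.86. Unc80 averaged 200.3 ± 26.1 CPM in cisplatin libraries, 212 ± 34.9 in oxaliplatin libraries and 367 ± 40.0 in vehicle libraries, a fall of 0.88 and 0.80. Kcnj10, the inward rectifier of satellite glia (Kir4.1), had 31.5, 31.8 and 43.2 CPM in cisplatin libraries, 32.4, 28.7 and 31.9 CPM in oxaliplatin libraries and 63.9, 54.5 and 61.9 CPM in vehicle libraries, a fall of 0.76 and 0.96. These 3 genes passed for both drugs under library totals (-0.61 and -0.57 for Unc79, -0.60 and -0.51 for Unc80, -0.48 and -0.66 for Kcnj10). With the GC and length trend removed all 3 still passed, at -0.54 and -0.55 for Unc79, -0.50 and -0.46 for Unc80 and -0.73 and -0.93 for Kcnj10. Kcnj8, the vascular ATP-sensitive rectifier, rose by 0.71 with cisplatin (adjusted p = 0.0271) and by 1.15 with oxaliplatin (adjusted p = 0.00144). Its cisplatin value was 0.58, 0.52 and 0.74 without cisplatin library 3, vehicle library 1 and vehicle library 3, where it did not pass (adjusted p = 0.0733, 0.115 and 0.0668), and 0.54 with the GC and length trend removed (adjusted p = 0.0712).

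**Figure D5:**
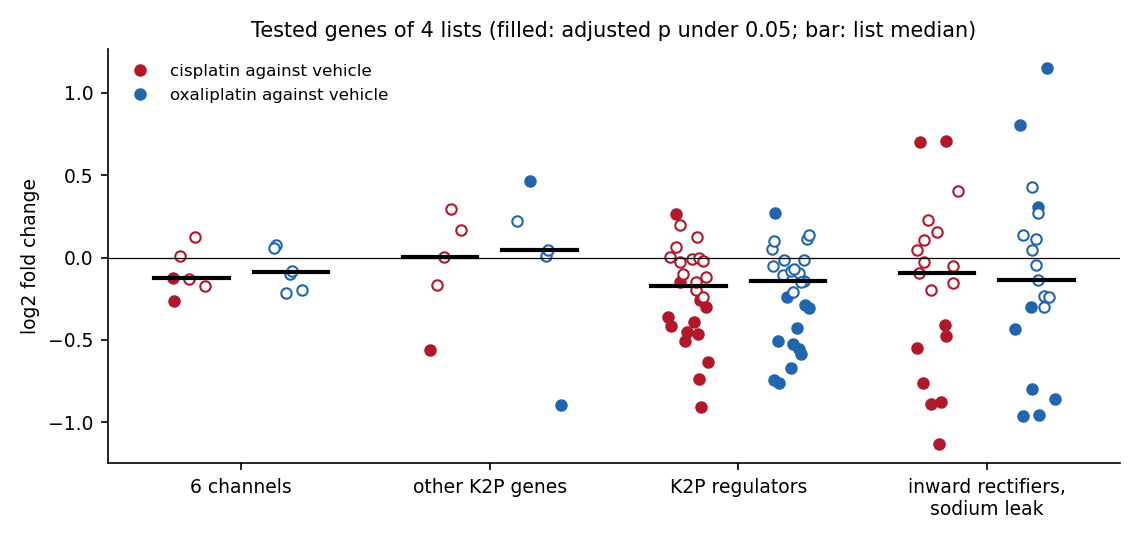
Log2 fold changes against vehicle of the tested genes in 4 lists (points; filled, adjusted p under 0.05; bar, list median) for cisplatin and oxaliplatin under TMM scaling. The 6 channels lie between -0.26 and 0.12, while the regulators reach -0.90 and the inward rectifier and sodium leak list spans -1.13 to 1.15.

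Whole ganglia hold neurons, glia, vessels and immune cells, and in such tissue fewer cells of a type and less RNA per cell cannot be told apart. All 20 pan-neuronal markers were detected. Under TMM 10 fell and 0 rose with cisplatin (22.9% of all genes lower and 15.8% higher), with a list median of -0.20. With oxaliplatin 10 fell and 1 rose (24.1 and 17.5% of all genes), with a list median of -0.22. The summed level of these 20 markers was 18812 to 21436 CPM in cisplatin libraries, 19766 to 20777 CPM in oxaliplatin libraries and 21176 to 22320 CPM in vehicle libraries. These genes are also the base of the pan-neuronal scaling. The 6 K2P genes together gave 115 to 120 CPM in cisplatin libraries, 116 to 122 CPM in oxaliplatin libraries and 121 to 132 CPM in vehicle libraries.

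Markers of other cells were also called, and their counts are given under TMM only. Of all genes, 15.8% were higher and 22.9% lower with cisplatin, and 17.5 and 24.1% with oxaliplatin. The satellite glia counts were near these shares. Of 10 satellite glia markers, which include Kcnj10 itself, 2 rose and 3 fell with cisplatin and 1 rose and 3 fell with oxaliplatin (list medians -0.04 and -0.05), and their sum, carried mainly by Apoe, was 3179 to 3416 CPM in cisplatin libraries, 3383 to 3562 CPM in oxaliplatin libraries and 2811 to 3141 CPM in vehicle libraries. Of 10 endothelial markers 8 rose with cisplatin and 10 with oxaliplatin, and their sum was 176 to 214, 182 to 199 and 121 to 145 CPM in cisplatin, oxaliplatin and vehicle libraries. Of 9 macrophage markers counted 8 and 6 rose, of 9 neutrophil and blood markers 9 and 9 (list medians 1.89 and 1.47), of 11 fibroblast markers 11 and 9, of 12 myelinating Schwann markers 11 and 5, and of 11 pericyte and smooth muscle markers 5 and 6, with none lower in any of these lists. The pericyte and smooth muscle list includes Kcnj8 and Abcc9, which are also in the inward rectifier list. Markers that fell were 9 and 8 of 14 for non-peptidergic and itch neurons, 5 and 4 of 8 for low-threshold C fibre and cold neurons, 7 and 6 of 14 for large-diameter neurons, and 6 and 6 of 8 tested for non-myelinating Schwann cells. Of these 4 lists, 1 non-peptidergic marker rose with each drug and 1 C fibre or cold marker rose with oxaliplatin. Peptidergic markers were divided, with 3 higher and 2 lower of 10 for cisplatin and 2 higher and 2 lower for oxaliplatin, and 0 of 8 skeletal muscle markers passed. No listed marker was at 0 in all libraries, and the part of cell composition in the channel values was not tested.

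By the rule for likeness of pattern, the closest gene to each channel over the 9 libraries was taken by Pearson's r of log2 CPM among 13285 genes, as a description. They were F2rl3 for Kcnk1 (r = 0.978), Pcdhb21 for Kcnk3 (r = 0.972), Kl for Kcnk2 (r = 0.936), Cstf1 for Kcnk10 (r = 0.968), Dtx3l for Kcnk4 (r = 0.890) and Rims3 for Kcnk18 (r = 0.981). With 9 libraries that share groups and scaling, and that many candidates, values of this size say little about any single pair. F2rl3 averaged 1.29, 1.57 and 2.40 CPM and Pcdhb21 averaged 7.09, 7.34 and 9.81 CPM in cisplatin, oxaliplatin and vehicle libraries, the same order of groups as Kcnk1 and Kcnk3. Their choice by r over these same libraries favours that order. Between the channels themselves, r with group means removed ran from -0.24 (Kcnk2 and Kcnk10) to 0.795 (Kcnk10 and Kcnk18). For Kcnk1 and Kcnk10 it was 0.746, beside 0.135 over the 9 libraries with group means kept. So few libraries cannot show whether the channels share a pattern.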

How the data were processed

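The deposited files hold raw counts of reads per gene symbol for each of the 9 libraries, with no normalization. Libraries were stranded total RNA, sequenced as 75-nucleotide single-end reads, per the labels' protocols. STAR, SAMtools and HTSeq and the build mm10 (GRCm38) are named per the submitters' processing notes; versions, annotation and strand setting are not given there. The 5 classes of reads assigned to no gene (42.8 to 74.5% of each file's total) entered neither library sizes nor tests.

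Counts were tested with edgeR 4.0.16 (R 4.3.3): 1 fit of all 9 libraries with a term per group, TMM scaling, filterByExpr (17348 genes), quasi-likelihood F tests and Benjamini-Hochberg adjustment over all tested genes, with genes called at an adjusted p under 0.05. Each SE is |log2 fold change| divided by √F. Exon lengths, positions and coding sequences came from GENCODE M21, in which 91.8% of symbols matched.

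The 6 genes and all lists were chosen with earlier results of these data known, and support nothing by their choice. Named genes are the 6 channels, every other K2P gene counted, the 4 genes of smallest p per surrounding list and drug, and the most correlated genes. S100a10, Ppp3ca and Ppp3cc fall outside this rule and were named with their values known. Tried as alternatives were library totals, median-ratio factors, pan-neuronal scaling, no count filter, DESeq2 1.42.0, limma-voom (limma 3.58.1), a replicate block, fits of 2 groups, removal of GC and length trends (mgcv 1.9.3), removal of structural and mitochondrial RNA, and each library left out. Library totals without vehicle library 2 were added after the data were seen. The procedure was tested on simulated counts. No libraries were duplicates: replicate pairs differed beyond counting noise. The chi-squared statistic per gene between replicates was 530 and 583 for the pairs with vehicle library 2 and 4.17 to 20.3 for the other pairs. The TMM factor was 0.70 for vehicle library 2 and 0.96 to 1.10 for the other libraries.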

Additional observations from a re-analysis of the deposited data

How the results depend on the processing

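Of 360 values of the 6 genes under alternatives (18 results, 20 alternatives each), 321 kept the main result. They were called in the same direction as in the main fit, or called in neither. They include all values between the drugs, where no fit called any of the 6 genes. Of the 360, 29 changed sign, 23 of them with no call on either side. Most of the 18 results were not called in the main fit. For the calls with cisplatin, 10 of 20 alternatives called Kcnk3, all lower. Kcnk1 was called in 3 of 20, including pan-neuronal scaling, where it was higher. The causes were not tested.

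For cisplatin against vehicle, Kcnk1 was at 0.17 with library totals, 0.013 with library totals and vehicle library 2 left out, and 0.20 with pan-neuronal scaling, and below the threshold at -0.11 with DESeq2 (adjusted p = 0.0949) and with median-ratio factors (0.0721), -0.12 with limma-voom (0.0535) and in a fit of 2 groups (0.0841), -0.079 with no count filter (0.372) and -0.10 with structural and mitochondrial RNA removed (0.0969). With GC and length trends removed it was -0.30 (adjusted p = 0.000872). Leaving out each library gave -0.13 to -0.10. Kcnk3 was at 0.021, -0.16 (vehicle library 2 left out) and 0.058 in the same scalings, -0.25 with DESeq2 (0.0603) and -0.22 with no count filter (0.0921), with -0.31 to -0.20 on leaving out each library. Kcnk2 reached 0.41 with library totals, 0.27 with vehicle library 2 left out and 0.45 with pan-neuronal scaling, and Kcnk10 0.33 with the last. For oxaliplatin against vehicle, pan-neuronal scaling gave 0.22 for Kcnk1, 0.37 for Kcnk2 and 0.40 for Kcnk10, library totals gave 0.37 for Kcnk10, and removal of GC and length trends gave -0.27 for Kcnk1 and 0.28 for Kcnk10, both past the threshold. With library totals and vehicle library 2 left out, Kcnk10 was at 0.22 for oxaliplatin (adjusted p = 0.0780). Nalcn turned to 0.018 (cisplatin) and 0.11 (oxaliplatin) with these trends removed and to 0.012 (oxaliplatin) with pan-neuronal scaling.

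Between same-numbered libraries, deviations from group means correlated at -0.21 to 0.168, so the numbers were not taken as pairs. With a replicate block, Kcnk1 was -0.12 for cisplatin (adjusted p = 0.0573), Kcnk3 was -0.20 for oxaliplatin (adjusted p = 0.0428), Kcnk9 no longer passed for cisplatin (-0.56), and 0 genes differed between the drugs.

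Calls over all genes between cisplatin and oxaliplatin numbered 2, and 15 with DESeq2, 68 with library totals, 0 with these and vehicle library 2 left out, 1 with limma-voom, 16 with no count filter, 0 with pan-neuronal scaling, 0 with 2 groups only, and 0 to 2 on leaving out each library. For cisplatin against vehicle they numbered 6715, and 10511 with pan-neuronal scaling. Without vehicle library 2, 46.5% of called genes were higher for cisplatin and 47% for oxaliplatin, beside 40.9 and 42.1%. Of the regulators, 13 were called for cisplatin and 5 with library totals, where 6907 of all genes were called. Other K2P genes called were 1 for cisplatin (3 with pan-neuronal scaling, 0 to 1 on leaving out each library) and 2 for oxaliplatin (5, and 1 to 2). Pan-neuronal scaling called 8974 of all genes higher and 1475 lower for oxaliplatin. At the depth of these libraries 3 counts correspond to 0.0710 to 0.188 CPM, which limits Kcnk7, Kcnk9, Kcnk15 and Kcnk16.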
